A study of Sus scrofa with 8 samples.

Results

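The genes described here write, copy and erase DNA methylation. They are the DNA methyltransferases DNMT1, DNMT3A and DNMT3B, the DNMT1 recruiter UHRF1, the oxidising enzymes TET1, TET2 and TET3, and the glycosylase TDG. Members were chosen by symbol, as the rows of the count table whose identifier carries one of these 8 names among the pig Ensembl gene names. The rule found 7 of the 8 genes among 24358 identifiers in the table, and TET2 is not analysed here. Only transcripts were measured, and DNA methylation itself was not.

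Methyl groups on cytosine in CpG sites help to keep genes, transposable elements and imprinted alleles silent. DNMT3A and DNMT3B place the mark on unmethylated DNA, whereas UHRF1 recognises the hemimethylated DNA that replication leaves and brings DNMT1 to it, so that the pattern is copied to the new strand. TET enzymes oxidise methylcytosine in steps, and TDG cuts out the more oxidised bases for repair. In mammalian pluripotent cells DNMT3B is typically abundant, and the balance of these enzymes differs between naive and primed states.

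The study asked how IRF-1, a transcription factor of the interferon system, affects porcine induced pluripotent stem cells (piPSCs). Transcripts were sequenced in 2 IRF-1 overexpressing libraries (replicates 1 and 3) and 2 control libraries (replicates 6 and 8). All 4 libraries come from DOX-hLIF-2i piPSCs, which were made from porcine embryonic fibroblasts carrying an OCT4-tdTomato reporter with doxycycline-driven OCT4, SOX2, KLF4, c-MYC (OSKM) and M2rtTA vectors. Feeder cells were depleted before RNA extraction by letting them attach to plates.

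The overexpressing cells carried PB-CAG-IRF1-Flag, a piggyBac vector in which the ubiquitous CAG promoter drives Flag-tagged porcine IRF1, and controls had the same vector without the insert, PB-CAG-Flag. Puromycin selection was common to both groups. They also shared doxycycline and the transgenes it drives, and the methods name human and porcine LIF with the inhibitors CHIR99021 and PD0325901 in the medium, whereas the sample labels name an LCDMV medium. The genotype label reads as IRF-1 overexpression for all 4 libraries, so the split into groups follows the study's own legend. No source states that libraries of a group came from separate cultures or clones, and p-values then measure only the spread between libraries, which may be technical.

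IRF1 was measured first as a check of that split. IRF1 had 8206 and 5485 counts in overexpressing replicates 1 and 3 and 55 and 56 counts in control replicates 6 and 8. The overexpressing libraries averaged 296.8 ± 47.1 CPM (SD, n = 2) and the control libraries 3.36 ± 0.225 CPM (SD, n = 2), where CPM is the count divided by the TMM-scaled library size and expressed per 1000000 counts. Both overexpressing libraries stood far above both controls, with a log2 fold change of 6.46 (SE 0.21) and a Benjamini-Hochberg adjusted p of 3.65e-05 in edgeR's quasi-likelihood test. Reads from the vector and from the cells' own gene cannot be told apart in these counts.

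Library totals were 24923319 and 20858333 counts in overexpressing replicates 1 and 3, and 15925429 and 17097669 counts in control replicates 6 and 8. At these depths 3 counts, the floor used here, correspond to between 0.12 and 0.188 CPM, and each of the 7 members had at least 280 counts in every library. Mitochondrial genes took 8.62% and 7.57% of the counts under overexpression and 6.29% and 6.68% in the control libraries. Depth and mitochondrial share therefore moved with the group, and their part in the results below was not tested.

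The edgeR test covered 13250 genes. A gene was said to rise or fall at an adjusted p under 0.05, and a second count also asked for a log2 fold change no smaller in size than 1. Of the 7 members 1 rose, UHRF1, where 13.9% of all genes rose, and 1 fell, DNMT3A, where 15.5% of all genes fell. With the fold minimum, DNMT3A was still counted, where 10.6% of all genes fell that far. No member rose by a log2 of 1 in edgeR, where 8.61% of all genes rose that far, or in DESeq2 or limma-voom. At an unadjusted p under 0.05 no member rose that far in any of the 3 either. These counts are near the background, so the number of members that changed does not set the group apart from other genes. The background itself moved with overexpressing replicate 1, without which 858 genes rose and 967 fell, against 1842 and 2054 with all 4 libraries, and with the fold minimum 756 and 874 against 1141 and 1410.

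**Figure D1:**
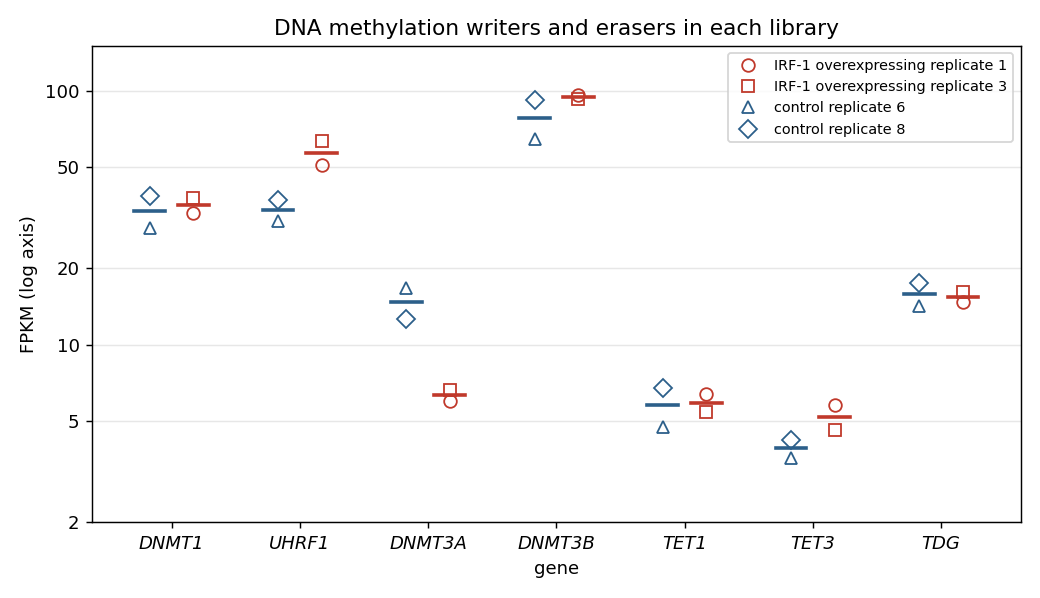
Levels of the 7 members in each of the 4 libraries, as FPKM on a log axis, with open symbols for libraries and horizontal lines for group means (blue, control; red, IRF-1 overexpressing). DNMT3A lies lower in both overexpressing libraries (6.01 and 6.61 FPKM) than in both controls (16.8 and 12.6 FPKM), UHRF1 lies higher (51.0 and 63.1 against 30.7 and 37.0 FPKM), and DNMT1, TET1 and TDG overlap between groups.

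Levels were compared between members as FPKM, which divides the CPM by the length of all annotated exons of a gene in kilobases. In the control libraries the order of mean FPKM ran from DNMT3B (78.3) through UHRF1 (33.9), DNMT1 (33.6), TDG (15.8), DNMT3A (14.7) and TET1 (5.76) to TET3 (3.91). There UHRF1 and DNMT1 overlapped in their libraries, and so did TDG and DNMT3A. In the overexpressing libraries the order of mean FPKM was the same, from DNMT3B (94.4) through UHRF1 (57.1), DNMT1 (35.4), TDG (15.5), DNMT3A (6.31) and TET1 (5.91) to TET3 (5.21). There DNMT3A was no longer level with TDG and overlapped with TET1, which in turn overlapped with TET3. Which transcripts of each gene were made was not measured.

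Of the maintenance pair, UHRF1 rose and DNMT1 did not pass the test. UHRF1 (ENSSSCG00000013517, chromosome 2, 73897310 to 73931916, minus strand, Sscrofa11.1) had 6337 and 6556 counts in overexpressing replicates 1 and 3 and 2401 and 3232 counts in control replicates 6 and 8. Its level was 255 and 315 CPM under overexpression and 154 and 185 CPM in the control libraries. Each overexpressing library exceeded each control, and the difference was larger than the spread within either group. The means were 285 ± 42.5 and 169 ± 22.0 CPM (SD, n = 2 each). UHRF1 thus rose by a log2 fold change of 0.75 (SE 0.165; 95% CI 0.37 to 1.14), which is 1.68-fold, with an adjusted p of 0.0125 in edgeR's quasi-likelihood test.

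The UHRF1 call rested on overexpressing replicate 3, the library with its highest level. Without that library the log2 fold change was 0.60 and the edgeR adjusted p 0.109, and over all 13 alternatives the adjusted p ran from 0.000164 to 0.109. In such a fit the group left with 1 library is assumed to vary like the other group. The direction was the same in all 13. In bulk RNA, a change in the number of cells that express a gene and a change in its RNA per cell cannot be told apart.

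DNMT1, which copies the methylation pattern after replication (ENSSSCG00000013659, chromosome 2, 68981566 to 69029855, minus strand), was counted 7950 and 7656 times in overexpressing replicates 1 and 3 and 4374 and 6519 times in control replicates 6 and 8. Its level was 320 and 368 CPM in overexpressing replicates 1 and 3 and 280 and 373 CPM in control replicates 6 and 8. The groups overlapped, since the highest value and the lowest were both in controls. The log2 fold change was 0.08 (95% CI -0.32 to 0.47) with an adjusted p of 0.773 in edgeR, an interval that leaves room for a level between 0.801 and 1.39 times that of the control. Without control replicate 6 the log2 value was -0.12, and without overexpressing replicate 3 it was -0.02, so no direction can be given for DNMT1.

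Within a library, UHRF1 was 1.55 and 1.67 times DNMT1 by FPKM in overexpressing replicates 1 and 3 and 1.07 and 0.964 times in control replicates 6 and 8. The ratio does not depend on scaling between libraries, but it reuses the UHRF1 and DNMT1 values tested above. It was higher in both overexpressing libraries. Its mean was 1.61 ± 0.0814 against 1.01 ± 0.0731 (SD, n = 2 each), with a two-sided exact permutation p of 0.33. That is the smallest p that 2 libraries against 2 can give, here and for the other ratios and shares.

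UHRF1 is transcribed mainly in cells that are preparing for or passing through DNA replication, so S-phase genes are given beside it. Of 15 S-phase genes tested 2 rose, 1 fell and 12 did not pass, where 13.9% of all genes rose and 15.5% fell. Their summed level was 2079 and 2403 CPM in the overexpressing and 2000 and 2359 CPM in the control libraries. Their median log2 value was 0.07 against -0.0016 over all 13250 genes. That median gives no direction, since it was 0.26 and -0.06 without overexpressing replicates 1 and 3 and -0.11 and 0.23 without control replicates 6 and 8, where 0, 0, 0 and 4 genes rose and 0, 1, 2 and 1 fell. MCM2 was the most abundant by CPM (adjusted p 0.368 in edgeR), whereas by FPKM RRM1 exceeded it in both groups (107 and 106 against 96.7 and 85.6 FPKM). The cyclin gene CCNE2 rose (14.2 ± 1.72 against 6.94 ± 2.22 CPM) and TYMS, which makes thymidylate, fell (150 ± 0.255 against 217 ± 2.63 CPM; SD, n = 2 each). Without overexpressing replicates 1 and 3 in turn both calls were lost at log2 fold changes of 1.17 and 0.91 for CCNE2 (1.03 with all libraries) and -0.52 and -0.53 for TYMS (-0.53), and that of CCNE2 also without control replicate 6 at 0.74 (highest adjusted p over all alternatives 0.147 and 0.19, lowest 0.00273 and 0.0104). E2F1 was the other S-phase gene that rose (34.0 ± 3.54 against 21.05 ± 1.82 CPM; SD, n = 2 each; log2 fold change 0.69, edgeR adjusted p 0.024). Its call was lost in 3 of 13 alternatives, and with 1 library left out its log2 fold change ran from 0.58 to 0.81. What part cell cycle phase has in the UHRF1 difference was not tested.

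The de novo enzymes differed from each other. DNMT3A fell, and DNMT3B had a higher mean in the overexpressing libraries that did not pass the test. DNMT3A (ENSSSCG00000029413, chromosome 3, 113502333 to 113609129, plus strand) had 726 and 669 counts in overexpressing replicates 1 and 3 and 1276 and 1069 counts in control replicates 6 and 8, although the control libraries were the shallower ones. Its level was 29.2 and 32.1 CPM under overexpression and 81.6 and 61.1 CPM in the control libraries. Both overexpressing libraries lay below both controls, and the gap between the groups exceeded the spread within each. The means were 30.7 ± 2.08 and 71.3 ± 14.5 CPM (SD, n = 2 each). The log2 fold change was -1.22 (SE 0.181; 95% CI -1.64 to -0.80), a control level 2.33 times the overexpressing one, with an adjusted p of 0.00258 in edgeR.

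DNMT3A kept this direction and an adjusted p under 0.05 in all 13 alternatives, with log2 fold changes from -1.40 to -0.996 and adjusted p values from 3.16e-07 to 0.0218. A fall beyond a log2 of 1 was less firm. Without control replicate 6 the value was just above -1, and DNMT3A did not pass edgeR's glmTreat test against a log2 fold change of 1.

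DNMT3B (ENSSSCG00000007252, chromosome 17, 36332801 to 36388412, plus strand), the most abundant member, received 25707 and 20918 counts under overexpression and 10849 and 17433 counts in the control libraries. Its level was 1034 and 1005 CPM in overexpressing replicates 1 and 3 and 694 and 996 CPM in control replicates 6 and 8. Control replicate 8 was almost level with the overexpressing libraries, and control replicate 6 was lower. The groups did not overlap, but the means of 1020 ± 20.5 and 845 ± 214 CPM (SD, n = 2 each) differed by less than the spread between the controls. The log2 fold change was 0.27 (95% CI -0.14 to 0.69) with an adjusted p of 0.297 in edgeR. By qRT-PCR, a different measure, the study reports DNMT3B as upregulated by IRF-1 overexpression. It also reports DNMT3B as higher in piPSCs sorted for an active IRF-1 promoter reporter, which were not sequenced here.

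Control replicate 8 decided the DNMT3B call. Without it the log2 fold change was 0.56 and the edgeR adjusted p 0.00416, and without control replicate 6 it was 0.03 with an adjusted p of 0.859. Over the 13 alternatives the adjusted p of DNMT3B ran between these values.

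DNMT3B shares 180 exon bases with MAPRE1, which encodes a microtubule plus-end binding protein and lies on the same strand just downstream. The shared bases are 1.67% of the exon bases of DNMT3B and 2.53% of those of MAPRE1, and how reads on them were assigned is not given in the sources used here. MAPRE1 had 3623 and 3391 counts in the overexpressing and 3590 and 3859 counts in the control libraries. Its level was 146 and 163 CPM against 230 and 220 CPM, so both overexpressing libraries were below both controls, opposite to the means of DNMT3B. MAPRE1 fell by 0.54 on the log2 scale (SE 0.136) with an adjusted p of 0.0209 in edgeR, which became 0.253 without overexpressing replicate 1 (log2 -0.45) and 0.095 without overexpressing replicate 3 (-0.62), the range over its alternatives being 0.0104 to 0.253. No other member shares exon bases with another gene of the table.

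The balance of the de novo pair was taken within each library from FPKM. DNMT3B made up 94.1% and 93.4% of DNMT3A plus DNMT3B in overexpressing replicates 1 and 3 and 79.3% and 88.0% in control replicates 6 and 8. The share was higher in both overexpressing libraries, and the controls differed more from each other than the overexpressing libraries did. The mean shares were 93.7 ± 0.516% and 83.7 ± 6.17% (SD, n = 2 each), with a difference of 10.1 percentage points and a two-sided exact permutation p of 0.33. The size of that difference is uncertain, at 5.72 points without control replicate 6, 14.4 without control replicate 8 and 5.23 from counts not divided by exon length. DNMT3B was 15.9 and 14.1 times DNMT3A under overexpression and 3.83 and 7.34 times in the control libraries. DNMT1 was 5.48 and 5.73 times DNMT3A under overexpression and 1.72 and 3.05 times in the control libraries, a ratio with no overlap between groups. These ratios and the DNMT3B share reuse the DNMT3A values tested above, so they are not separate evidence of its fall. The summed FPKM of the 3 methyltransferases was 135 and 138 under overexpression and 110 and 143 in the control libraries, so the sums overlapped although DNMT3A fell.

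Among the erasers, neither TET gene nor TDG passed the test. TET1 (ENSSSCG00000010241, chromosome 14, 71675671 to 71812694, plus strand), a dioxygenase that oxidises methylcytosine, had 1028 and 726 counts in overexpressing replicates 1 and 3 and 480 and 764 counts in control replicates 6 and 8. Its level was 41.4 and 34.9 CPM under overexpression and 30.7 and 43.7 CPM in the control libraries. The overexpressing values lay inside the range of the controls. The log2 fold change was 0.04 (95% CI -0.45 to 0.52) with an adjusted p of 0.917 in edgeR, and it was -0.08 without overexpressing replicate 1 and -0.20 without control replicate 6.

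TET3 (ENSSSCG00000008292, chromosome 3, 68924990 to 68968883, minus strand), an enzyme of the same family, received 719 and 478 counts under overexpression and 280 and 368 counts in the control libraries. Its level was 28.9 and 23.0 CPM in overexpressing replicates 1 and 3 and 17.9 and 21.0 CPM in control replicates 6 and 8. The overexpressing libraries were above the controls, with a narrow gap between overexpressing replicate 3 and control replicate 8. The log2 fold change was 0.41 (SE 0.202; 95% CI -0.06 to 0.88) with an adjusted p of 0.167 in edgeR, and the interval reaches a 1.85-fold higher level. TET3 stayed positive and short of the threshold in all 13 alternatives, with log2 values from 0.25 to 0.58.

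TET1 made up 52.5% and 54.0% of TET1 plus TET3 by FPKM in overexpressing replicates 1 and 3 and 57.0% and 61.6% in control replicates 6 and 8. The share was lower in both overexpressing libraries. Its mean was 53.2 ± 1.06% against 59.3 ± 3.27% (SD, n = 2 each), with a two-sided exact permutation p of 0.33. The difference was -6.05 percentage points, and -3.74 without control replicate 8. The sum of TET1 and TET3 was 12.2 and 10.02 FPKM under overexpression and 8.36 and 10.99 FPKM in the control libraries, and the groups overlapped. The summed methyltransferases were 11.03 and 13.7 times the summed TET genes under overexpression and 13.2 and 13.0 times in the control libraries, which also overlapped.

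TDG, the glycosylase that removes oxidised methylcytosine (ENSSSCG00000000847, chromosome 5, 80437959 to 80492252, minus strand), received 1098 and 1006 counts under overexpression and 667 and 913 counts in the control libraries. Its level was 44.2 and 48.3 CPM in overexpressing replicates 1 and 3 and 42.7 and 52.2 CPM in control replicates 6 and 8. The overexpressing values lay inside the range of the controls. The log2 fold change was -0.04 (95% CI -0.41 to 0.34) with an adjusted p of 0.891 in edgeR, and it turned to 0.04 without overexpressing replicate 1 and to 0.12 without control replicate 8.

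The control replicates parted in the same way for several members. Control replicate 8 exceeded control replicate 6 in 6 of the 7 members, and DNMT3A was the exception. The larger value was 1.44 times the smaller for DNMT3B, 1.42 for TET1, 1.34 for DNMT3A and 1.33 for DNMT1, against 1.03, 1.18, 1.10 and 1.15 between the overexpressing replicates. TDG followed with 1.22 against 1.09, whereas UHRF1 (1.20 against 1.24) and TET3 (1.17 against 1.26) differed more between the overexpressing replicates.

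**Figure D2:**
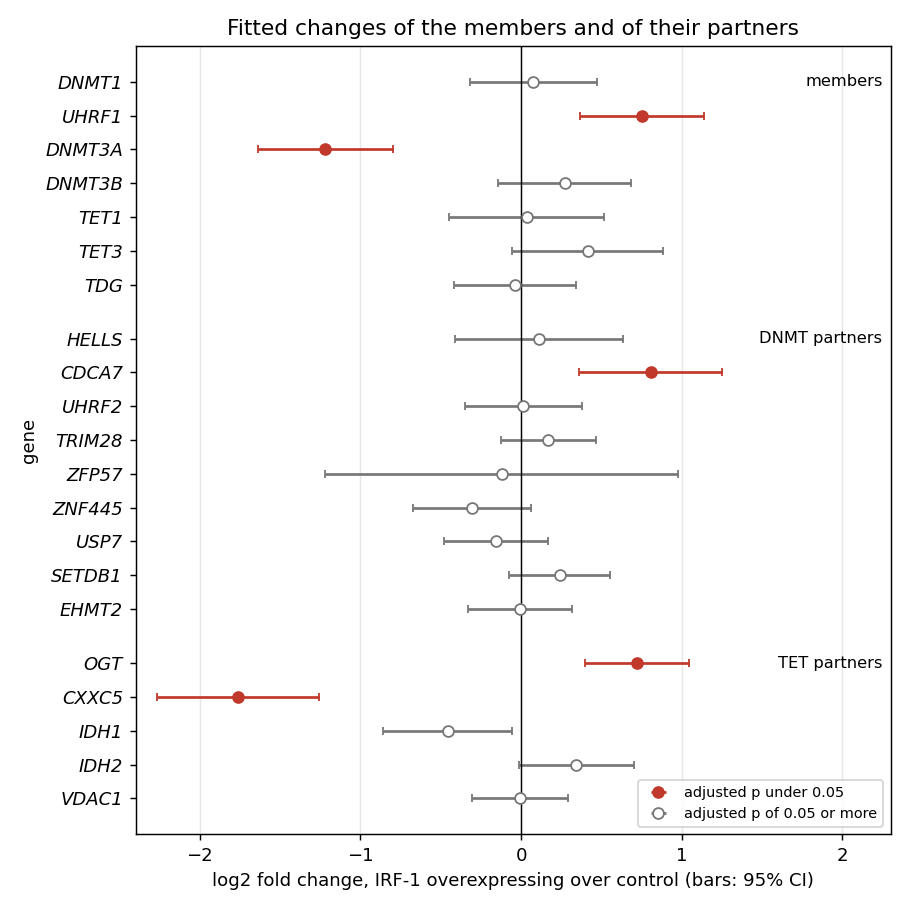
Log2 fold changes of the 7 members and of the tested genes of 2 partner lists, IRF-1 overexpressing over control, with 95% confidence intervals from edgeR; filled red points have an adjusted p under 0.05. Among the members the interval of DNMT3A (-1.64 to -0.80) lies below 0, that of UHRF1 (0.37 to 1.14) lies above 0, and the other 5 include 0.

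Of the partners of the methyltransferases 9 were tested, of which 1 rose and 0 fell in edgeR, where 13.9% and 15.5% of all genes did. Their median log2 fold change was 0.02 and ran from -0.04 without control replicate 6 to 0.18 without control replicate 8. Without either overexpressing replicate 0 rose, and without control replicate 8 2 rose. CDCA7, a zinc-finger protein that works with the chromatin remodeller HELLS, was at 170 and 189 CPM in the overexpressing libraries and 84.4 and 121 CPM in the controls. CDCA7 rose by a log2 fold change of 0.81 (SE 0.192) with an adjusted p of 0.0169 in edgeR, a call lost without overexpressing replicate 1 (log2 0.90, adjusted p 0.0516) and without overexpressing replicate 3 (0.73, 0.0823), in a range of 0.000135 to 0.0823. HELLS was at 81.3 and 89.9 CPM against 60.1 and 98.1 CPM and overlapped between groups, although its adjusted p was 0.0262 without control replicate 8, within a range of 0.0262 to 0.947.

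Among the partners that did not pass, UHRF2, the paralogue of UHRF1, was at 54.5 ± 1.44 and 53.9 ± 8.04 CPM, and the corepressor gene TRIM28, the most abundant, at 712 ± 54.4 and 632 ± 14.3 CPM (SD, n = 2 each). The histone methyltransferase genes SETDB1 and EHMT2, the deubiquitinase gene USP7 and the imprint-protecting genes ZFP57 and ZNF445 had log2 fold changes from -0.31 (ZNF445; -0.18 without control replicate 8) to 0.24 (SETDB1). None of these 5 passed in any alternative (lowest adjusted p 0.0951). The cofactor gene DNMT3L had 1 and 4 counts in the overexpressing and 1 and 0 counts in the control libraries, at or next to the floor, and no fold is given.

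Of the partners of the TET enzymes 5 were tested, of which 1 rose and 1 fell, where 13.9% and 15.5% of all genes did. Their median log2 fold change was -0.0077. Over the same 5 genes that median was 0.05 without control replicate 6, where 2 rose and 2 fell, and -0.06 without control replicate 8, and 0 rose without overexpressing replicate 1. OGT, the O-GlcNAc transferase that binds TET proteins, was at 497 and 425 CPM against 272 and 287 CPM and rose by 0.72 on the log2 scale (SE 0.138; edgeR adjusted p 0.00727), which became 0.0976 without overexpressing replicate 1 (log2 0.62; lowest over all alternatives 0.000104). CXXC5, a CpG-binding zinc-finger protein, was at 6.32 and 6.82 CPM against 23.6 and 21.0 CPM and fell by 1.76 on the log2 scale (SE 0.216; edgeR adjusted p 0.00124), under 0.05 in all 13 alternatives.

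IDH1 and IDH2, which make the cofactor that TET enzymes consume, were at 118 ± 3.41 against 162 ± 34.1 CPM and at 177 ± 8.07 against 140 ± 20.9 CPM (SD, n = 2 each), with adjusted p values of 0.086 and 0.136 in edgeR. IDH1 passed with no filter on low counts (0.0474) and without control replicate 6 (0.00454; highest 0.367), and IDH2 without control replicate 6 (0.0216; highest 0.451). VDAC1 had a log2 fold change of -0.0077, NANOG had 8 and 11 counts against 5 and 9 counts, and PRDM14 had 0 counts in every library, which allows up to between 0.12 and 0.188 CPM.

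Genes that read, repair or feed DNA methylation were listed as well. Beside their counts, 13.9% of all genes rose and 15.5% fell. Of 9 methyl-CpG readers and MBD family genes 1 rose and 1 fell (median log2 fold change 0.08), namely MBD3, which in mammals does not itself prefer methylated CpG and had the highest mean CPM over the 4 libraries (150 ± 0.0296 against 99.0 ± 1.86 CPM), and ZBTB38 (1.61 ± 0.107 against 8.80 ± 1.13 CPM; SD, n = 2 each). In the controls alone MBD1 was slightly higher than MBD3, at 101 ± 0.820 CPM (SD, n = 2). Of 13 genes of base excision repair and demethylation 3 rose and 1 fell (median 0.02), with the highest value for GADD45G (20 and 14 against 3 and 0 counts) and the lowest for GADD45B (69 and 64 against 681 and 168 counts), and PARP1, the most abundant, at 446 ± 44.8 and 451 ± 31.0 CPM. Of 13 genes of the methyl donor cycle 2 rose and 1 fell (median -0.08), with the highest value for MAT2B (43.0 ± 4.22 against 19.9 ± 1.61 CPM), the lowest for AHCYL2 (21.5 ± 0.122 against 48.4 ± 7.27 CPM), and AHCY, the most abundant by CPM, at 668 ± 46.4 and 804 ± 52.4 CPM (SD, n = 2 each). By FPKM MAT2A exceeded AHCY in both groups (159 and 136 against 104 and 125 FPKM). The calls of ZBTB38, GADD45B, MAT2B and AHCYL2 were made in all alternatives, with GADD45B at a log2 fold change of -3.18, and -1.72 without control replicate 6. MBD3 lost its call but not its log2 fold change of 0.60 without overexpressing replicate 1 (0.61) and overexpressing replicate 3 (0.60), with a lowest adjusted p over all alternatives of 0.00331 in edgeR. GADD45G lost its call with DESeq2 (adjusted p 0.16) and without overexpressing replicate 1, overexpressing replicate 3 or control replicate 8 (log2 2.80, 3.05 and 1.92 against 2.94). Without control replicate 6 the log2 value of GADD45G was 6.97, as the remaining control had 0 counts, so no exact fold can be given. Without overexpressing replicates 1 and 3 in turn 0 and 0 genes of the reader list, 0 and 0 repair genes and 1 and 1 donor genes rose, 2 of the reader list rose without control replicate 6 and 2 without control replicate 8, and 2 donor genes fell without control replicate 8. With 1 library left out, the medians over the same genes of these 3 lists ran from 0.07 to 0.21, 0.06 to 0.16 and -0.14 to -0.0075.

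Genes that methylation is known to hold silent or to imprint were counted beside these, although their methylation was not measured. Of 13 germline genes with an identifier 9 had no more than 3 counts in every library and 2 were tested, of which TDRD12 rose (54.7 ± 16.2 against 26.8 ± 0.424 CPM; SD, n = 2 each; edgeR adjusted p 0.011, and 0.086 without overexpressing replicate 1, where the log2 fold change went from 1.03 to 0.70; lowest over all alternatives 2.12e-05). Of 12 imprinted genes tested 3 rose and 5 fell (median log2 fold change -0.47), where 13.9% and 15.5% of all genes did. Without overexpressing replicates 1 and 3 in turn 1 and 1 of them fell, while the genes that fell over the whole table went from 2054 to 967 and 1399. Among them were KCNQ1 with the highest value (2043 and 1092 against 7 and 4 counts) and DLK1 with the lowest (46 and 18 against 70 and 113 counts). IGF2R had the highest mean CPM over the 4 libraries (544 ± 38.9 against 755 ± 17.8 CPM, SD, n = 2 each). PEG10 exceeded IGF2R under overexpression (565 CPM) and, by FPKM, in both groups (85.0 and 109.5 against 60.4 and 83.8 FPKM). The DLK1 call was lost without overexpressing replicate 3 (log2 -1.56 against -1.99, edgeR adjusted p 0.0682, lowest over all alternatives 0.000128) and that of IGF2R without overexpressing replicate 1 (-0.53 against -0.47) or 3 (-0.40; adjusted p up to 0.246, lowest over all alternatives 0.0116). Any link of these levels to UHRF1 and DNMT3A was not tested.

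Cell type markers moved with the groups as well. Beside the counts below, 13.9% of all genes rose and 15.5% fell. Of 4 pluripotency markers tested 3 fell and 0 rose (median log2 fold change -1.80). The lowest value was that of ESRRB (1.51 ± 0.375 against 27.5 ± 6.46 CPM). LIN28A, which the study counts among genes of primed states, was the most abundant (175 ± 15.9 against 444 ± 87.7 CPM; SD, n = 2 each). CDH1 fell as well, at 25.38 and 73.95 against 240 and 232 CPM. EPCAM did not pass and was slightly higher in both overexpressing libraries, at 7.965 and 8.985 against 7.228 and 7.372 CPM. The sum over 6 genes, most of it LIN28A, was 199 and 271 CPM in the overexpressing and 785 and 645 CPM in the control libraries. NANOG, a defining factor of the labelled cell type, was near the floor in every library. POU5F1, SOX2, SALL4, TDGF1, ZFP42 and DPPA3 had no identifier and are not analysed here, so the list gives no general account of pluripotency markers. Of 6 trophoblast markers tested 1 rose and 3 fell (median -1.44), and the sum was 310 and 1157 CPM against 15590 and 9548 CPM, most of it KRT8 with 6213 and 21095 counts against 187722 and 130983 counts. TFAP2A was the trophoblast marker that rose (36.9 ± 8.36 against 2.78 ± 0.136 CPM; SD, n = 2 each), KRT18 had the lowest value (343 and 1843 against 55405 and 35599 counts), and the defining markers CDX2 and HAND1 had 0 counts in every library.

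Of 8 neural markers tested 5 rose, 0 fell and 3 did not pass, where 13.9% of all genes rose. The median was 1.63, and 0.95 without overexpressing replicate 1, and the sum was 721 and 302 CPM against 94.2 and 99.9 CPM. NEUROG2 was among those that rose (85 and 49 against 0 and 0 counts), and STMN2 was the most abundant by mean CPM (241 ± 122 against 74.5 ± 2.48 CPM; SD, n = 2 each). Of the 3 that did not pass, DCX and ELAVL4 were higher in both overexpressing libraries. PAX6 was lower in both, at 0.483 and 0.144 against 0.704 and 0.971 CPM, which is near the floor. Of 5 fibroblast markers tested 1 rose and 3 fell (median -1.97), and the sum was 267 and 215 CPM against 331 and 273 CPM, with FBN1 as the most abundant by mean CPM (125 ± 2.87 against 148 ± 29.4 CPM), PDGFRB with the lowest log2 fold change (2.05 ± 1.31 against 90.8 ± 49.4 CPM), LUM and COL5A1 at 3 counts or fewer in every library, and COL1A2 higher (110 ± 40.9 against 52.1 ± 17.3 CPM; SD, n = 2 each), a call lost without overexpressing replicate 1 (log2 0.65 against 1.08, lowest adjusted p over all alternatives 8.24e-06 in edgeR). COL1A1, unlike COL1A2, was among the 3 that fell (2.48 ± 0.156 against 9.76 ± 3.38 CPM; SD, n = 2 each; edgeR adjusted p 0.00547). By FPKM COL1A2 exceeded FBN1 under overexpression (20.6 against 13.1 FPKM), and PDGFRB exceeded FBN1 in the controls (15.8 against 15.4 FPKM). FBN1 did not pass but had an adjusted p of 0.0379 without control replicate 6 (highest over all alternatives 0.978). These medians, and that of the repair list, were the same with GADD45G, DCN, NEUROG1 and NEUROG2, which were at the floor in 1 group, put at the bound that 3 counts in each library of that group give. The part of these shifts in the DNMT3A and UHRF1 results was not tested.

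For the members that passed, the named genes with the closest pattern over the 4 libraries were found by the root mean square difference of centred log2 CPM. For DNMT3A they were PGAP2 (0.023), WWC1 (0.0274) and PSAP (0.0306). PSAP, which encodes the precursor of the lysosomal saposins, was at 291 and 331 CPM under overexpression and 793 and 624 CPM in the control libraries. For UHRF1 they were ATP1B1 (0.0429), SETD4 (0.047) and LSM3 (0.0539). ATP1B1, a subunit of the sodium pump, was at 57.4 and 71.9 CPM under overexpression and 36.1 and 44.8 CPM in the control libraries. With 4 libraries many genes can follow nearly the same pattern, and likeness says nothing of shared function.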

How the data were processed

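RNA-seq of 4 libraries was used, and the 4 ChIP and input samples were not analysed here. The authors deposited raw read counts per gene, whole numbers without normalization or pooling, together with the exon length of each gene as an annotation value. According to the methods and the submitters' processing notes, reads were trimmed with trim_galore, aligned to Sus scrofa 11.1 with HISAT2 2.0.4 and counted on Ensembl genes with featureCounts 1.6.4. The methods also name other counting tools. The strand setting, the treatment of multi-mapped reads and the annotation release are not given in the sources used here.

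Symbols were matched by identifier, and 14692 of 24358 identifiers had one. The members and gene lists were chosen with earlier results of these data known. Counts were compared in R 4.3.3 with edgeR 4.0.16 (TMM factors 0.982 to 1.02, filterByExpr by group, quasi-likelihood fit and test, common dispersion 0.0313) and Benjamini-Hochberg adjustment over 13250 genes. Standard errors were taken as the absolute log2 fold change over the square root of F, and 95% intervals use the t quantile at the fitted degrees of freedom. FPKM is TMM-scaled CPM per kilobase of exon. Nearest patterns used log2(CPM + 0.5). No replicate pair was as alike as counting noise allows (chi-square divided by its degrees of freedom was 15.1 for the overexpressing and 25.8 for the control pair). The procedure was tested on simulated counts. Intervals and floors cover counting error or library spread only.

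The 12 lists held partners of DNMT and TET proteins, methyl-CpG readers with MBD family genes, base excision repair, the methyl donor cycle, S phase, germline genes silenced by methylation, imprinted genes, and markers of pluripotent cells, fibroblasts, trophoblast and neural cells. In this order 10 of 12, 7 of 8, 9 of 10, 15 of 17, 16 of 16, 15 of 20, 13 of 20, 14 of 20, 6 of 12, 9 of 10, 10 of 10 and 9 of 10 genes had an identifier. Named genes are the members, IRF1, MAPRE1, all partners, in each list the 2 highest and 2 lowest log2 fold changes at adjusted p under 0.05 with the most abundant gene, and the 3 nearest patterns of each member that passed. The most abundant gene of a list is the one with the highest mean CPM over the 4 libraries, not divided by exon length. Outside the partner lists the text was mainly cut, after the values were seen, to the highest and lowest fitted values and the most abundant. E2F1, CDH1, EPCAM, COL1A1, DCX, ELAVL4 and PAX6 are given besides. Markers named for their absence were chosen after their values were seen. Shares of the 3 TET genes had been planned; as TET2 has no named identifier, the share was taken over TET1 and TET3, and the alternatives for it were added after seeing the data. The alternatives were 3 other scalings, 2 other filters, DESeq2 1.42.0, limma-voom (limma 3.58.1), glmTreat, counts without the 37 mitochondrial or the 10 highest genes, each library left out, and shares from counts without length. Tables and figures used Python 3.11.15, pandas 2.3.3, scipy 1.17.1 and matplotlib 3.10.9.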

Additional observations from a re-analysis of the deposited data

How the results depend on the processing

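DNMT3A, TET3 and IRF1 kept their direction and their side of the threshold in all 13 alternatives. The DNMT3B and TET1 shares kept their direction in all 5 of theirs but not their size: the differences ran from 5.23 to 14.4 and from -8.36 to -3.74 percentage points. With 2 controls, leaving 1 out always moves the difference by less than their SD, so these moves give no measure of how stable the shares are. With glmTreat 611 genes were higher and 603 lower by a log2 of 1, and 0 members were lower. With each library left out in turn, genes higher ranged from 858 to 2119, genes lower from 967 to 2274, and with the fold minimum from 756 to 1156 and from 874 to 1548. Members higher ranged from 0 to 2, and members lower with the fold minimum from 0 to 1. The log2 fold changes ranged from -0.12 to 0.31 for DNMT1, 0.032 to 0.56 for DNMT3B, 0.60 to 0.91 for UHRF1, -0.20 to 0.32 for TET1 and -0.18 to 0.12 for TDG. For other named genes they ranged from -0.12 to 0.095 for PARP1, -0.20 to 0.52 for HELLS, -0.13 to 0.18 for UHRF2, -0.44 to 0.29 for ZFP57, -0.085 to 0.09003 for EHMT2 and -0.058 to 0.052 for VDAC1. EHMT2 was at 0.012 with no filter and 0.0029 with DESeq2, and VDAC1 at 0.01001 and 4.89e-05. The cause of these moves was not tested, except that fewer libraries entered each leave-one-out fit, where the lone library is assumed to vary like the other group. Among 54 other genes that the naming rule chose, 36 of 701 values lost and 6 gained a call, and 14 changed sign.

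With 2 libraries a group, a change must be large or even between libraries to pass, and a missed threshold does not show equal levels. No paired analysis was possible because the overexpressing libraries are numbered 1 and 3 and the controls 6 and 8. Methylation, splice forms and TET2 were not analysed here.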
